A study of Mus musculus with 6 samples.

Results

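Molecular chaperones of the cytosol, the mitochondria and the endoplasmic reticulum (ER) were followed in a mouse MLL-AF10 leukemia cell line given an IKK inhibitor. The group comprised 49 genes fixed by name: 22 genes of cytosolic heat shock proteins, their co-chaperones and the heat shock factor Hsf1, 8 subunit genes of the cytosolic chaperonin TRiC, 5 mitochondrial chaperone genes and 14 ER chaperone genes. A probe set naming a single gene was found for 46 of the 49 in the deposited table, out of 19847 genes tested. Hsp90ab1 and Hsf1 are not analysed here, and Hspa1b is represented by a probe set that it shares with Hspa1a. The list names genes by compartment and sets no threshold on these arrays, but it was drawn up with earlier results of the same data known.

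Treatment with an IKK inhibitor at 0.5 µM (3 samples) was compared with vehicle (3 samples of the same line). Both groups carry the MLL-AF10 fusion and were grown in RPMI with fetal bovine serum and WEHI conditioned medium, which is used as a source of interleukin-3. Nothing in the labels names the compound or the vehicle, or says how long treatment lasted or whether the line is a single clone. The labels also leave unsaid whether separate cultures were treated, so every p-value below reflects only the spread among these samples and that spread may be technical.

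Chaperones bind unfolded proteins and release them in cycles driven by ATP. HSP70 proteins are loaded by J proteins and emptied by exchange factors, and HSP90 proteins take over part of their clients, among them steroid receptors and many protein kinases, with the help of co-chaperones that choose the client or pace the cycle. TRiC is a double-ring chamber that folds actin, tubulin and other cytosolic proteins. Mitochondria have their own HSP60 chamber, HSP70 and HSP90, and the ER has its own HSP70 (BiP), HSP90 (GRP94), sugar-binding chaperones and disulfide isomerases. Cytosolic chaperone genes are switched on by heat shock factors and ER chaperone genes by the unfolded protein response.

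Median intensity was 112 to 124 over the 6 arrays. Leukocyte and myeloid markers moved both ways: of 8 tested, Ptprc, Itgam, Csf1r and Lyz2 were higher and Mpo and Elane lower with the inhibitor, and the summed intensity of the 8 was 19373 to 19746 on the inhibitor arrays and 16721 to 17373 on the vehicle arrays. Csf1r, the macrophage colony-stimulating factor receptor gene, rose by 1.23 on the log2 scale and the progenitor granule gene Mpo fell by 2.62. None of 4 T cell, 4 B cell, 2 erythroid and 5 stromal markers passed the test by limma. At an unadjusted p under 0.05, 1 of these markers was lower, the B cell gene Cd79a. Their summed intensities were 366 to 447, 426 to 474, 256 to 286 and 615 to 717 on the inhibitor arrays and 398 to 476, 406 to 466, 268 to 298 and 641 to 753 on the vehicle arrays. The table has no detection calls, and the B cell gene Ms4a1 lay close to the floor of 16 used here, at 22.9 to 26.7 with the inhibitor and 21.2 to 24.7 with vehicle. The part of the shift in myeloid genes in the chaperone values below was not tested.

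Chaperone genes that passed the test were lower with the IKK inhibitor. Of the 46 genes, 12 were lower and none was higher at a Benjamini-Hochberg adjusted p under 0.05 by limma, against 6.75% of all 19847 genes called lower and 7.10% called higher. The 12 were the TRiC subunit genes Cct2, Cct3, Cct4, Cct7 and Cct8, the mitochondrial genes Hspd1 and Trap1, the ER genes Pdia6 and Creld2 and the HSP90 co-chaperone genes Stip1, Fkbp4 and Cdc37. Their changes were small, between a fall of 12.6% for Stip1 and 22.9% for Creld2. At an unadjusted p under 0.05 by limma, 22 of the 46 were lower and none higher. Of all 19847 genes, 2749 were lower and 2645 higher at that threshold. The median log2 fold change was -0.12 over the 46 genes and 0.0064 over all genes tested.

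The 46 genes gave bright signals, and bright genes were called more often. The brightest 25% of all genes held 41 of the 46. Among these bright genes, 11.9% were called lower and 13.0% higher, and the median log2 fold change was -0.02. Of the 4962 bright genes, 1187 were lower and 1046 higher at an unadjusted p under 0.05 by limma. All 3 inhibitor arrays lay below all 3 vehicle arrays for 27 of the 46 genes, against 17.2% of all genes and 32.4% of the brightest 25%. The opposite arrangement was found for Canx and Pdia3, against 15.8% of all genes. Without inhibitor arrays 1, 2 and 3 the share of all genes called lower was 2.25%, 6.56% and 3.9%, and without vehicle arrays 1, 2 and 3 it was 3.44%, 2% and 2.11%. The number of chaperone genes called lower was 4, 9 and 10 without inhibitor arrays 1, 2 and 3 (the 10 include Manf, which is not among the 12) and 7, 6 and 3 without vehicle arrays 1, 2 and 3. By compartment, the calls covered 5 of 8 TRiC, 2 of 5 mitochondrial, 2 of 14 ER and 3 of 19 cytosolic genes; whether the compartments differ was not tested.

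**Figure D1:**
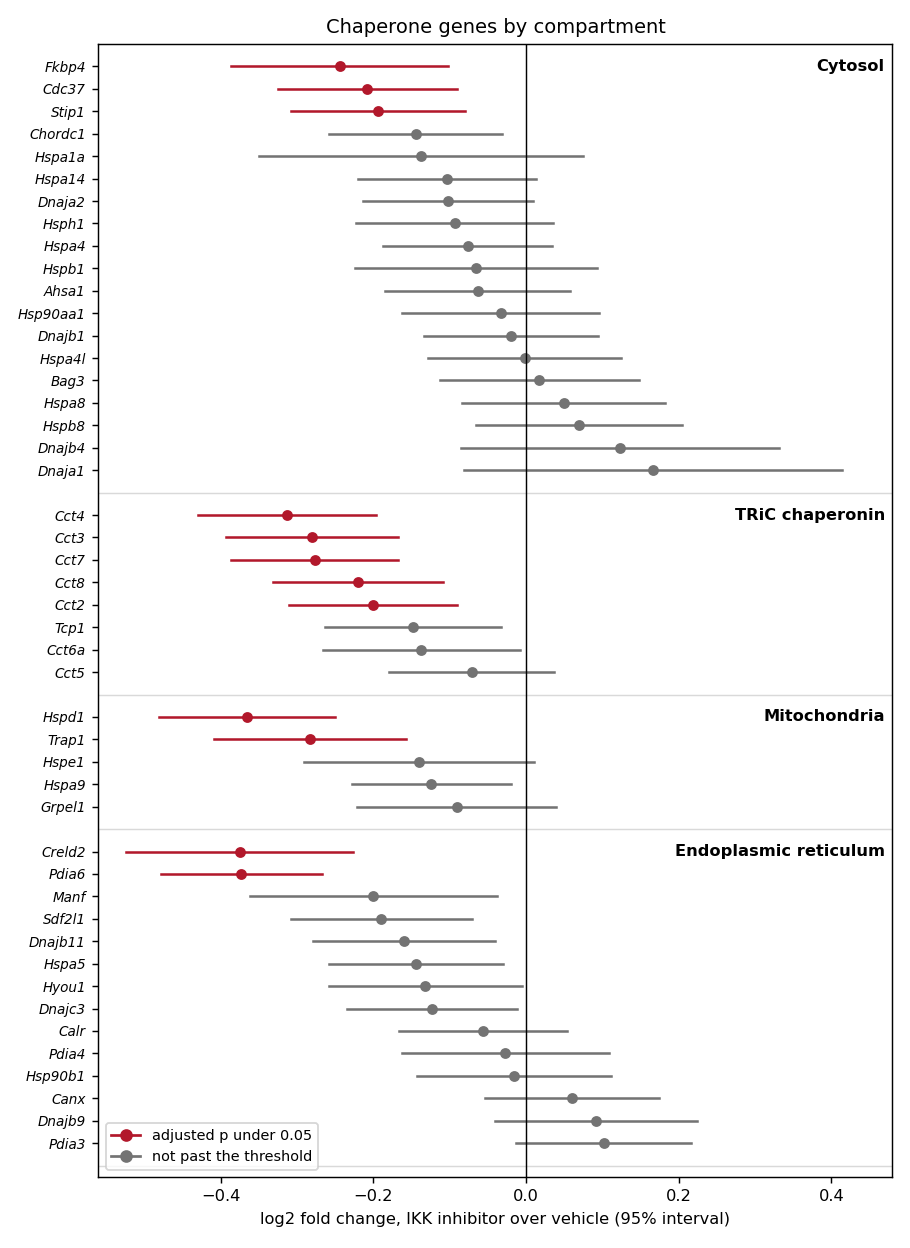
Log2 fold change of each of the 46 chaperone genes, IKK inhibitor over vehicle, on the x axis, with the 95% interval of the limma fit as a bar, grouped by compartment and sorted within it. Red marks the 12 genes past an adjusted p of 0.05, all of which lie left of 0; each TRiC and mitochondrial estimate lies left of 0, though some of their intervals cross it, while cytosolic and ER estimates lie on both sides.

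All 8 TRiC subunit genes measured lower with the inhibitor, and 5 of them passed the test. The calls were 62.5% of the 8, against 6.75% of all genes and 11.9% of the bright genes described above. For all 8 the inhibitor arrays lay below the vehicle arrays, against 17.2% of all genes and 32.4% of the bright genes. Whether the TRiC genes differ from bright genes was not tested. The ring is built from 8 different subunits, each encoded by its own gene. Cct4, the delta subunit, had intensities of 1728, 1739 and 1646 on the inhibitor arrays and 2159, 2085 and 2104 on the vehicle arrays. It fell by 19.5%, a log2 fold change of -0.31 ± 0.05 (SE, n = 3 each; adjusted p = 0.00889), and its call held with any array left out. Cct3, the gamma subunit, had 1425, 1457 and 1397 with the inhibitor and 1768, 1698 and 1730 with vehicle. The eta subunit gene Cct7 had 1723, 1752 and 1692 with the inhibitor and 2118, 2048 and 2094 with vehicle. The log2 fold changes of Cct3 and Cct7 were both -0.28 ± 0.05 (SE), and both genes just missed the threshold without inhibitor array 1 (adjusted p = 0.0522 and 0.0506) and without vehicle array 3 (0.0527 and 0.053). In all 3 genes the inhibitor arrays formed a tight cluster well under the vehicle arrays.

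Cct8, the theta subunit, had 1204, 1240 and 1263 on the inhibitor arrays and 1421, 1458 and 1439 on the vehicle arrays. The beta subunit gene Cct2 had 2956, 2966 and 2907 with the inhibitor and 3442, 3294 and 3408 with vehicle. Here too the groups did not overlap, with log2 fold changes of -0.22 (adjusted p = 0.0251) and -0.20 (adjusted p = 0.0336). Cct8 was called in 2 of the 6 fits that left out an array, those without inhibitor arrays 2 and 3. It missed the threshold without inhibitor array 1 (adjusted p = 0.0995) and without vehicle arrays 1, 2 and 3 (0.0672, 0.0979 and 0.0932). Cct2 was called in none of the 6, where its adjusted p lay between 0.0515 without inhibitor array 2 and 0.12 without vehicle array 3. Both calls were also lost with each array centred on its median (0.0749 for Cct8 and 0.0987 for Cct2).

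The other subunits, which did not pass, also had all 3 inhibitor arrays below all 3 vehicle arrays. Tcp1, the alpha subunit that gave the complex its older name, averaged 2321 ± 77.9 with the inhibitor and 2572 ± 12.6 with vehicle (SD, n = 3 each), with a log2 fold change of -0.15 (adjusted p = 0.0974). Cct6a, the zeta subunit, averaged 2488 ± 85.0 with the inhibitor and 2736 ± 104 with vehicle, with -0.14 (adjusted p = 0.159). For Cct5, the epsilon subunit, the means were 2263 ± 30.7 with the inhibitor and 2378 ± 35.7 with vehicle. Its log2 fold change was -0.07, with a 95% interval of -0.18 to 0.04, against -0.43 to -0.20 for Cct4. The subunit genes thus ranged from -0.31 to -0.07, with a median of -0.21; whether any 2 of them differ in their change was not tested. The number of TRiC calls was 1, 4 and 4 without inhibitor arrays 1, 2 and 3 and 3, 3 and 1 without vehicle arrays 1, 2 and 3.

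**Figure D2:**
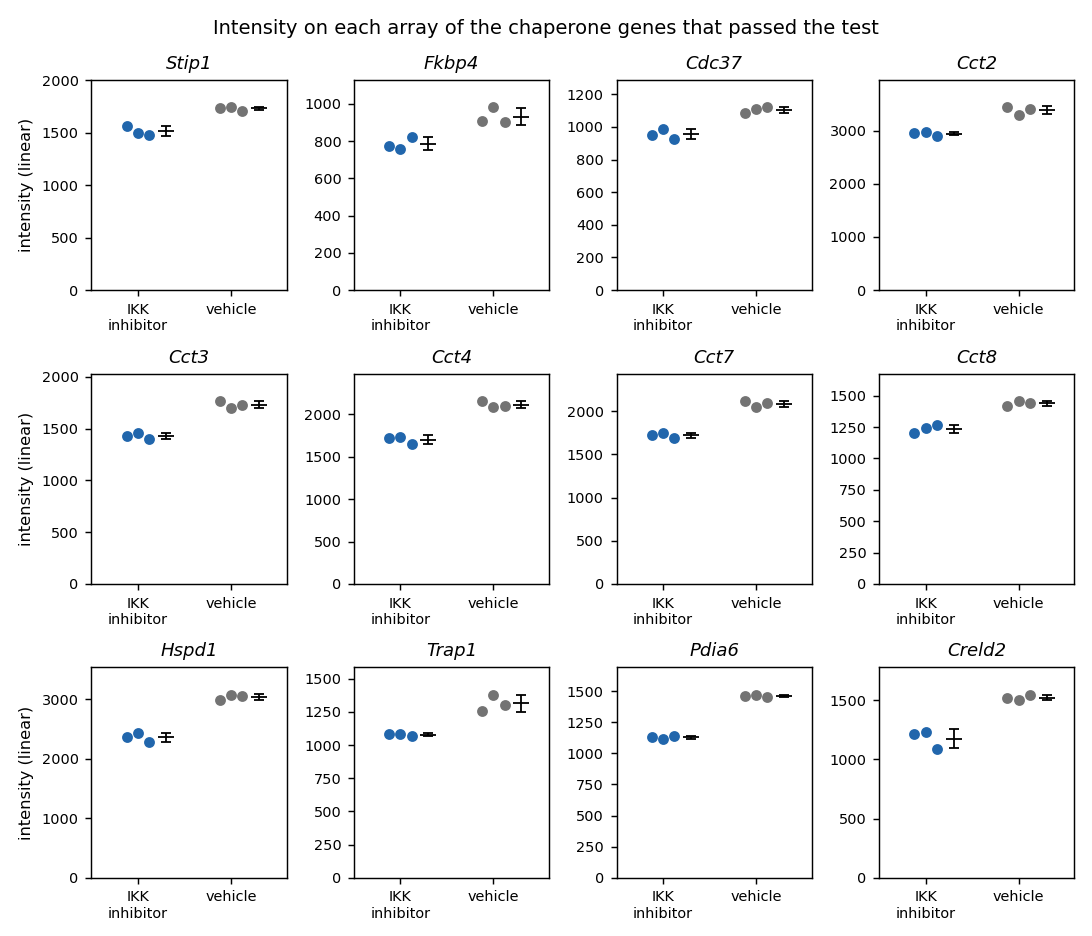
Deposited intensity (linear scale, y axis from 0) on each array for the 12 chaperone genes past the threshold, inhibitor arrays in blue on the left and vehicle arrays in grey on the right; black marks give the mean and SD of 3 arrays. In each of the 12 panels the inhibitor arrays lie below the vehicle arrays, for Pdia6 at 1114 to 1143 against 1454 to 1471.

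In the mitochondria, the genes for the HSP60 chamber and for the HSP90 relative TRAP1 were lower. Hspd1, which encodes HSP60, had 2364, 2429 and 2287 on the inhibitor arrays and 2985, 3078 and 3056 on the vehicle arrays. Its fall of 22.4% gave a log2 fold change of -0.37 ± 0.05 (SE, n = 3 each; adjusted p = 0.00493), and the call held with any array left out. Trap1 had 1083, 1086 and 1069 with the inhibitor and 1258, 1380 and 1305 with vehicle, a log2 fold change of -0.28 ± 0.05 (adjusted p = 0.0164). The inhibitor arrays of Trap1 lay close together (SD 9.17) and its vehicle arrays were wider apart (SD 61.4), without overlap. Its call was lost without inhibitor array 1 and without vehicle arrays 2 and 3 (adjusted p = 0.0634, 0.0652 and 0.0638). The count of mitochondrial calls was then 1 in each case.

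Hspe1 encodes HSP10, the lid of the HSP60 chamber. It had 1877, 1876 and 2119 on the inhibitor arrays and 2108, 2172 and 2183 on the vehicle arrays. Inhibitor array 3 thus lay among the vehicle arrays, and the log2 fold change of -0.14 (95% interval -0.29 to 0.01) did not pass (adjusted p = 0.214). Hspa9, the mitochondrial HSP70 (mortalin), averaged 2713 ± 8.59 with the inhibitor and 2956 ± 20.8 with vehicle (SD, n = 3 each), with no overlap of the groups, a log2 fold change of -0.12 and an adjusted p of 0.12. Its exchange factor gene Grpel1 averaged 794 ± 19.3 with the inhibitor and 846 ± 40.1 with vehicle, with overlapping arrays and a log2 fold change of -0.09.

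RefSeq lists 5 pseudogenes of Hspd1 and 6 of Hspe1, so reads of near-identical copies by these probe sets cannot be separated, and both genes are reported as uncertain in that respect. Hspd1 has 2 probe sets of its own. In a fit of all 34450 probe sets not at the floor on every array they gave log2 fold changes of -0.37 and -0.30 (adjusted p = 0.0135 and 0.0219). In that fit 7 of the 12 chaperone genes were called. Those not called were Cct2 (adjusted p = 0.0632), Cct8 (0.0501), Cdc37 (0.0677), Fkbp4 (0.075) and Stip1 (0.0753). The cause was not tested, and the share called over all probe sets is not given here. The 2 probe sets of Hspe1 both gave -0.14. RefSeq also lists 1 pseudogene each of Cct3, Tcp1, Hspa9 and Dnaja1. Only pseudogenes named by the gene's own symbol with a ps suffix were counted. Copies under other names were not searched for, so the remaining chaperone genes are not shown to be free of them.

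Hspd1 and Hspe1 are transcribed away from each other on chromosome 1, and RefSeq, in build GRCm38.p6, gives 1 start of Hspe1 and 2 of Hspd1. The stretch of 215 bases between the Hspe1 start and the Hspd1 start at 55087932, chr1:55087933-55088147, is shown because the data give values for both genes that flank it. The other Hspd1 start lies beyond the Hspe1 start, and its window held no heat shock element. The sequence is written 5′ to 3′ on the strand of Hspd1 (minus), with 2 overlapping heat shock elements in capitals.
Hspd1-Hspe1: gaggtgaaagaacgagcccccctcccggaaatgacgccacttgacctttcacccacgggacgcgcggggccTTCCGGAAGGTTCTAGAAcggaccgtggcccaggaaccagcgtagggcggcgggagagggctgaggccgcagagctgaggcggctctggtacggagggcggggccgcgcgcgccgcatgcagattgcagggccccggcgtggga
The element searched, on both strands, was GAA, TTC and GAA, or TTC, GAA and TTC, each block followed by 2 free bases before the next. It was present in 0.603% of 32851 RefSeq promoters, each from 250 bases before to 50 bases after a start. Of the 41 chaperone genes with an entry, 4 had it: Hspd1, Hspe1, Hsph1 and Chordc1. Of these, Hspd1 was called lower and the other 3 did not pass, at adjusted p = 0.214 for Hspe1, 0.333 for Hsph1 and 0.0979 for Chordc1.

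In the ER, Pdia6 and Creld2 were lower and the most familiar ER chaperone genes did not pass the test. The calls were 14.3% of the 14 ER genes, against 6.75% of all genes and 11.9% of the brightest 25%, a share near that of bright genes. At an unadjusted p under 0.05 by limma, 8 of the 14 were lower and none higher. Of the 4962 bright genes, 1187 were lower and 1046 higher at that threshold. The median log2 fold change was -0.13 over the 14 and -0.02 over the bright genes. Whether the ER genes differ from bright genes was not tested. Pdia6, a protein disulfide isomerase that also binds the ER-stress sensors, had 1127, 1114 and 1143 on the inhibitor arrays and 1458, 1471 and 1454 on the vehicle arrays. Its log2 fold change was -0.37 ± 0.04 (SE, n = 3 each), and it had the lowest adjusted p of the 46 chaperone genes (0.00325). The fall of 22.8% was larger than the spread of either group (SD 14.3 with the inhibitor and 8.64 with vehicle), and the call held with any array left out. Creld2, an ER protein with EGF-like domains whose gene is induced by ER stress, had 1213, 1232 and 1085 with the inhibitor and 1522, 1502 and 1547 with vehicle. Inhibitor array 3 was the lowest of these, and the log2 fold change was -0.37 ± 0.06 (adjusted p = 0.0111). The Creld2 call was lost without vehicle array 3 alone (adjusted p = 0.0519), where Pdia6 was the 1 ER call left.

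Hspa5 encodes BiP, the ER HSP70 and a standard readout of the unfolded protein response. It had 3655, 3612 and 3740 on the inhibitor arrays and 3944, 4155 and 4062 on the vehicle arrays. The groups did not overlap, but the log2 fold change of -0.14 (95% interval -0.26 to -0.03) missed the threshold over all genes (adjusted p = 0.102). Hsp90b1 (GRP94), which folds Toll-like receptors and integrins, averaged 3312 ± 102 with the inhibitor and 3349 ± 129 with vehicle (SD, n = 3 each), with overlapping arrays and a log2 fold change of -0.02 (-0.14 to 0.11). Hyou1, a large relative of HSP70 that acts as an exchange factor of BiP, had a log2 fold change of -0.13 (adjusted p = 0.167).

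Partners of BiP did not reach the threshold. Sdf2l1, which works with the J protein encoded by Dnajb11, had 2532, 2457 and 2486 on the inhibitor arrays and 2758, 2954 and 2814 on the vehicle arrays, a log2 fold change of -0.19 with an adjusted p of 0.0504. Dnajb11 had -0.16 (adjusted p = 0.0862) and Dnajc3, a J protein that also inhibits the PERK kinase, -0.12 (adjusted p = 0.145). Manf, a secreted ER-stress protein that binds BiP, averaged 1060 ± 80.9 with the inhibitor and 1216 ± 40.2 with vehicle (SD, n = 3 each), with a log2 fold change of -0.20 and an adjusted p of 0.108, or 0.045 without inhibitor array 3. In these 4 genes all inhibitor arrays lay below all vehicle arrays. Dnajb9, a J protein that is one of the best known targets of the IRE1 branch, measured the other way, with 1442, 1354 and 1392 on the inhibitor arrays and 1307, 1253 and 1371 on the vehicle arrays; these overlap, and the log2 fold change of 0.09 did not pass (adjusted p = 0.356).

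The sugar-binding chaperones and the remaining disulfide isomerases did not pass. Calr averaged 4685 ± 44.3 with the inhibitor and 4873 ± 115 with vehicle (SD, n = 3 each), and its membrane-bound relative Canx 4318 ± 71.1 with the inhibitor and 4143 ± 114 with vehicle, for log2 fold changes of -0.06 and 0.06, the second of which was -0.01 with quantile normalization. Pdia3, the isomerase that works with both of them, had 3298, 3120 and 3254 on the inhibitor arrays and 2948, 3033 and 3030 on the vehicle arrays. The groups did not overlap and the log2 fold change was 0.10 (95% interval -0.01 to 0.22; adjusted p = 0.237). Pdia4 had -0.03 with overlapping arrays. Among the 3 isomerase genes, the interval of Pdia6 (-0.48 to -0.27) thus lay wholly below those of Pdia3 and Pdia4 (-0.16 to 0.11).

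**Figure D3:**
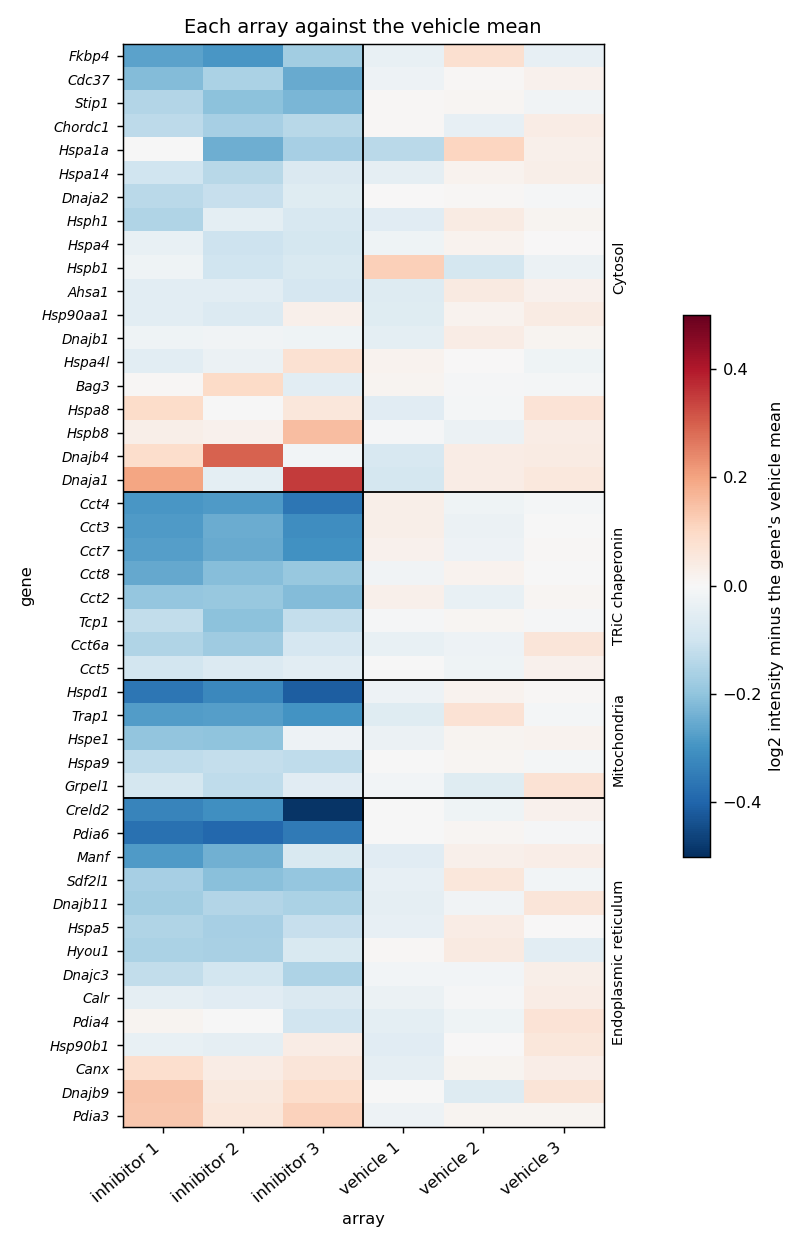
Log2 intensity of each chaperone gene (rows, grouped by compartment) on each array (columns, inhibitor arrays on the left) minus the mean of its vehicle arrays; blue is lower and red higher. The TRiC rows are blue on all 3 inhibitor arrays, the ER rows run from dark blue for Creld2 and Pdia6 to light red for Canx, Dnajb9 and Pdia3, and Dnaja1 and Dnajb4 differ between inhibitor arrays.

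The ER stress response element, CCAAT and CCACG with 9 free bases between them, is the promoter sequence through which ATF6 and XBP1 act on ER chaperone genes. A search on both strands found it in 7 of the 41 chaperone genes with a RefSeq promoter, all of them ER genes: Hspa5, Hsp90b1, Calr, Canx, Pdia6, Dnajc3 and Creld2. It was present in 0.119% of all 32851 promoters. Of these 7 genes, Pdia6 and Creld2 were called lower and 5 did not pass, with log2 fold changes from -0.14 for Hspa5 to 0.06 for Canx. The stretches before the starts of Pdia6 and Creld2 are shown beside those of Hspa5 and Hsp90b1 because all carry the element in full and the first pair passed the test. Hspa5 did pass in 4 of 14 alternative settings (adjusted p = 0.0344 with quantile normalization, 0.0297 with a floor of 32, 0.0229 among genes above the median intensity and 0.00182 with an intensity trend and robust prior), and Dnajc3 in the last 3 of these (0.0355, 0.0369 and 0.0174). They are written 5′ to 3′ on the strand of the gene, with the element or its reverse complement in capitals, from RefSeq build GRCm38.p6. They cover chr12:17266439-17266588 (plus strand) for Pdia6, chr15:88819496-88819645 (plus) for Creld2, chr2:34771940-34772089 (plus) for Hspa5 and chr10:86705525-86705664 (minus) for Hsp90b1, whose stretch holds the element in both directions.
Pdia6: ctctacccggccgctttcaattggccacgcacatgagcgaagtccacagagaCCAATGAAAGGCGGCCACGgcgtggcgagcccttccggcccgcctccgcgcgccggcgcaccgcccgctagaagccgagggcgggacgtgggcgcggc
Creld2: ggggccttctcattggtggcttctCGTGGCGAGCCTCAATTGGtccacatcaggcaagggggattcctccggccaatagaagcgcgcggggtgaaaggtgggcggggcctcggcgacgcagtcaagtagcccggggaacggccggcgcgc
Hspa5: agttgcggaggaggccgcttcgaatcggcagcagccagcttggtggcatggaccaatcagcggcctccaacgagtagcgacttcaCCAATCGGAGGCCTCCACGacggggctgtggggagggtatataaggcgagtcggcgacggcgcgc
Hsp90b1: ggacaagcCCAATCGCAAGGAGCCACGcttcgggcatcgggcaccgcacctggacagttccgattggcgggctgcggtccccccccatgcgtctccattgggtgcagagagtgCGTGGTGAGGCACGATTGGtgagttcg
The element of the other 3 genes, at chr8:84847075-84847093 (minus) for Calr, chr11:50325800-50325818 (minus) for Canx and chr14:118937827-118937845 (plus) for Dnajc3, reads as follows on the strand of the gene.
Calr: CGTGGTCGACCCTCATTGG
Canx: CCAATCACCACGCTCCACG
Dnajc3: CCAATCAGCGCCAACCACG
The shorter form, ATTGG and CCACG with 1 free base between them, was found for Dnajb11, against 0.0365% of all promoters. The E-box CACGTG, found in 7.15% of all promoters, was present for Hsph1, Calr, Dnajb9 and, at the other of its 2 starts, Hspd1. None of these 4 motifs was found in the entries of the TRiC genes; that says only that these letters are not in the windows searched. Hspa8, Hsp90aa1, Hsp90ab1, Hsf1, Cct4, Hspa9, Hyou1 and Manf had no entry.

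Among cytosolic genes the calls were HSP90 co-chaperones, with 3 of 6 co-chaperone genes lower. They were 15.8% of the 19 cytosolic genes tested, against 6.75% of all genes and 11.9% of the brightest 25%, a share near that of bright genes. Stip1 (HOP), which hands clients from HSP70 to HSP90, had 1564, 1500 and 1475 on the inhibitor arrays and 1738, 1743 and 1710 on the vehicle arrays. Cdc37, which brings protein kinases to HSP90, had 950, 990 and 927 with the inhibitor and 1084, 1107 and 1120 with vehicle. Fkbp4 (FKBP52), a prolyl isomerase that escorts steroid receptors, had 773, 759 and 825 with the inhibitor and 907, 983 and 903 with vehicle. In all 3 genes the groups did not overlap. The log2 fold changes were -0.19 ± 0.05 for Stip1, -0.21 ± 0.05 for Cdc37 and -0.24 ± 0.06 for Fkbp4 (SE, n = 3 each), with adjusted p of 0.0415, 0.0363 and 0.0403.

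These 3 calls were close to the threshold, and most or all of them were lost whichever array was left out. Over all genes, 1184 to 2812 were called with an array left out, against 2749 with all arrays. Without inhibitor array 1 or without vehicle array 1, 2 or 3 none of them remained, and the adjusted p without inhibitor array 1 was 0.0811 for Stip1, 0.12 for Cdc37 and 0.132 for Fkbp4. Without vehicle arrays 1, 2 and 3 the values were 0.112, 0.136 and 0.117 for Stip1, 0.0817, 0.12 and 0.129 for Cdc37 and 0.0835, 0.135 and 0.0938 for Fkbp4. Without inhibitor array 2 Cdc37 alone was called, with 0.0708 for Stip1 and 0.0785 for Fkbp4, and without inhibitor array 3 Fkbp4 alone, with 0.0916 for Stip1 and 0.0828 for Cdc37. None was called with each array centred on its median (0.107, 0.11 and 0.0538 for Stip1, Cdc37 and Fkbp4).

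HSP90 itself, as far as it was measured, and the other co-chaperones did not pass. Hsp90aa1, the inducible HSP90 gene, had 3733, 3694 and 3944 on the inhibitor arrays and 3722, 3926 and 3988 on the vehicle arrays, which overlap. Its log2 fold change was -0.03 (95% interval -0.16 to 0.10), and its 3 probe sets gave -0.03, -0.05 and -0.07. Chordc1 (morgana), an HSP90 partner, had 1670, 1631 and 1663 on the inhibitor arrays and 1837, 1776 and 1875 on the vehicle arrays, with no overlap and a log2 fold change of -0.14 (adjusted p = 0.0979). For Ahsa1, which speeds up the ATPase of HSP90, the log2 fold change was -0.06 with overlapping arrays. Bag3, which links HSP70 to small heat shock proteins and to autophagy, had 0.02.

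By the probe sets used, none of the 12 tested genes for HSP70 relatives, J proteins and small heat shock proteins passed. That held at the adjusted threshold and at an unadjusted p under 0.05 by limma. The probe set shared by Hspa1a and Hspa1b is given apart, below. Hspa8, the constitutive HSP70, had 5609, 5257 and 5475 on the inhibitor arrays and 5053, 5222 and 5521 on the vehicle arrays, a log2 fold change of 0.05 (95% interval -0.08 to 0.18) that was -0.01 with quantile normalization. Its 3 own probe sets gave 0.08, 0.06 and 0.05. The 2 probe sets that Hspa8 shares with Snord14c and Snord14d both gave -0.20, with overlapping arrays, and were not called. The exchange factors of the HSP110 family, Hspa4, Hspa4l and Hsph1, had log2 fold changes of -0.08, -0.0018 and -0.09, and the ribosome-associated Hspa14 had -0.10. All inhibitor arrays lay below all vehicle arrays for Hspa4 and Hspa14, and the arrays overlapped for Hspa4l and Hsph1.

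The heat-inducible HSP70 genes gave values that differ between probe sets. Hspa1a had 137, 116 and 122 on the inhibitor arrays and 125, 148 and 140 on the vehicle arrays by its own probe set, which overlap (log2 fold change -0.14, adjusted p = 0.391). A further probe set is annotated to both Hspa1a and Hspa1b and was therefore given to neither. It had 636, 553 and 662 on the inhibitor arrays and 495, 362 and 529 on the vehicle arrays. The inhibitor arrays all lay above the vehicle arrays, but the vehicle arrays were wide apart. In the fit of all probe sets the log2 fold change was 0.43 ± 0.16 (SE), with a 95% interval of 0.05 to 0.81. The unadjusted p by limma was 0.032, and the probe set did not pass after adjustment (adjusted p = 0.173).

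Dnajb1 (HSP40), the J protein induced along with HSP70 in heat shock, averaged 467 ± 0.898 with the inhibitor and 473 ± 14.9 with vehicle (SD, n = 3 each), and its log2 fold change was -0.02 (95% interval -0.13 to 0.09). The constitutive J protein gene Dnaja2 had -0.10, with all inhibitor arrays below all vehicle arrays (adjusted p = 0.22). Dnaja1 was uneven between inhibitor arrays, with 2527, 2132 and 2810, against 2073, 2262 and 2284 on the vehicle arrays. The log2 fold change of 0.17 ± 0.10 (SE) was that of the probe set used, and the other probe set of Dnaja1 gave -0.23, so no direction is given. A probe set that Dnaja1 shares with Mir207 gave -0.03. Dnajb4 likewise spread widely, with 541, 626 and 504 on the inhibitor arrays and 482, 523 and 525 on the vehicle arrays. The small heat shock protein genes Hspb1 and Hspb8 were dim, at 77.6 to 81.9 and 64.4 to 70.6 with the inhibitor and 78.2 to 90.3 and 62.1 to 65.0 with vehicle, and both overlapped. A second probe set of Hspb1 gave a log2 fold change of -0.19 and one of Pdia4 -0.14, and neither was called.

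Genes that work beside these chaperones but are not among the 49 also had calls in the lower direction. Of 99 related genes tested in 3 lists, 14 (14.1%) were lower and none was higher by limma, against 6.75% and 7.10% of all genes. Among genes above the median intensity, as 91 of the 99 were, 12.2% were called lower and 11.2% higher, so the share of lower calls was near that of bright genes. At an unadjusted p under 0.05 by limma, 27 of the 99 were lower and 4 higher. Of the 9923 genes above the median intensity, 2331 were lower and 1819 higher at that threshold. The median log2 fold change of the 99 was -0.06. Among 39 other cytosolic chaperone and heat shock factor genes, 6 (15.4%) were lower. Ppid (cyclophilin 40), an HSP90 co-chaperone, had 1070, 1097 and 965 on the inhibitor arrays and 1456, 1392 and 1408 on the vehicle arrays. These do not overlap, and the log2 fold change was -0.44 ± 0.06 (SE; adjusted p = 0.00624) that was called with any array left out. The prefoldin subunit gene Pfdn6 (-0.32), whose complex delivers actin and tubulin to TRiC, Fkbp5 (-0.27), a relative of Fkbp4, and the HSP70 exchange factor gene Bag2 (-0.37) were also lower, as were Hspa2 (-0.40) and the HSP90-bound phosphatase gene Ppp5c (-0.21), both named after their values were seen. This list had 1 call without inhibitor array 1 and without vehicle arrays 2 and 3, which was Ppid, 4 without inhibitor array 3 and without vehicle array 1, and 9 without inhibitor array 2. The heat shock factor gene Hsf2 had a log2 fold change of 0.09 (adjusted p = 0.346).

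Of 16 other mitochondrial chaperone and protease genes, all measured lower and 5 (31.2%) passed. Of all genes 6.75% were called lower, and 12.2% of those above the median intensity, as all 16 were. Whether this list differs from other bright genes was not tested. Htra2, a protease of the intermembrane space, averaged 1612 ± 15.8 with the inhibitor and 1970 ± 66.2 with vehicle (SD, n = 3 each), and its log2 fold change was -0.29 ± 0.05 (SE). Clpb, a mitochondrial disaggregase, had -0.34, Dnajc11 -0.27, Timm44, which tethers mortalin to the import channel, -0.34, and the matrix protease gene Clpp, named after its value was seen, -0.26. The median of this list was -0.16. The list had 0, 6 and 2 calls with inhibitor arrays 1, 2 and 3 left out in turn, and 3, 0 and 1 with vehicle arrays 1, 2 and 3 left out. The share of all genes called lower in each of these fits is given above.

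Of 44 other genes for ER folding, degradation and the unfolded protein response, 3 (6.82%) were lower, against 6.75% of all genes and 12.2% of those above the median intensity, as 43 of the 44 were. The share was thus no higher than the background. The median log2 fold change was -0.03. Pdia5 and Txndc5, which like Pdia6 encode disulfide isomerases, had the lowest adjusted p. Txndc5 had 230, 230 and 222 on the inhibitor arrays and 312, 316 and 297 on the vehicle arrays, a log2 fold change of -0.44 ± 0.05 (SE; adjusted p = 0.00277). Pdia5 had 326, 343 and 286 with the inhibitor and 455, 458 and 464 with vehicle, a log2 fold change of -0.53 ± 0.07 (adjusted p = 0.00578). Both were called with any array left out. The glucosidase gene Mogs, which trims the first sugar from new glycoproteins, had -0.37, with a call lost without vehicle arrays 2 and 3 (adjusted p = 0.0627 and 0.0586).

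The sensors and transcription factors of the unfolded protein response did not pass. Ern1 (IRE1) had 1167, 1264 and 1245 on the inhibitor arrays and 1419, 1388 and 1386 on the vehicle arrays, a log2 fold change of -0.19 with an adjusted p of 0.0559. Log2 fold changes were -0.10 for Atf6, -0.08 for Xbp1, -0.03 for Eif2ak3 (PERK), -0.02 for Atf4 and -0.02 for Ddit3 (CHOP). The 95% interval was -0.14 to 0.10 for Atf4 and -0.19 to 0.15 for Ddit3. These are levels of total transcript per probe set; splicing of Xbp1 and cleavage of ATF6 are not read by them.

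Pdia6, Hspd1 and Cct4 were called in each of 14 alternative settings, which include 8 of processing and 6 that each left out an array. Creld2 was called in 13, Cct3 and Cct7 in 12 and Trap1 in 11, Cct8 in 8, Fkbp4 and Cdc37 in 7 and Stip1 and Cct2 in 6. None of these 12 genes changed sign in any of the 14. Of the genes not called in the reported fit, Sdf2l1 was called in 5 settings, Hspa5 in 4, Tcp1, Chordc1, Hspa9, Dnajb11, Dnajc3 and Manf in 3, Cct6a in 2 and Hspe1, Hyou1 and Pdia3 in 1.

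**Figure D4:**
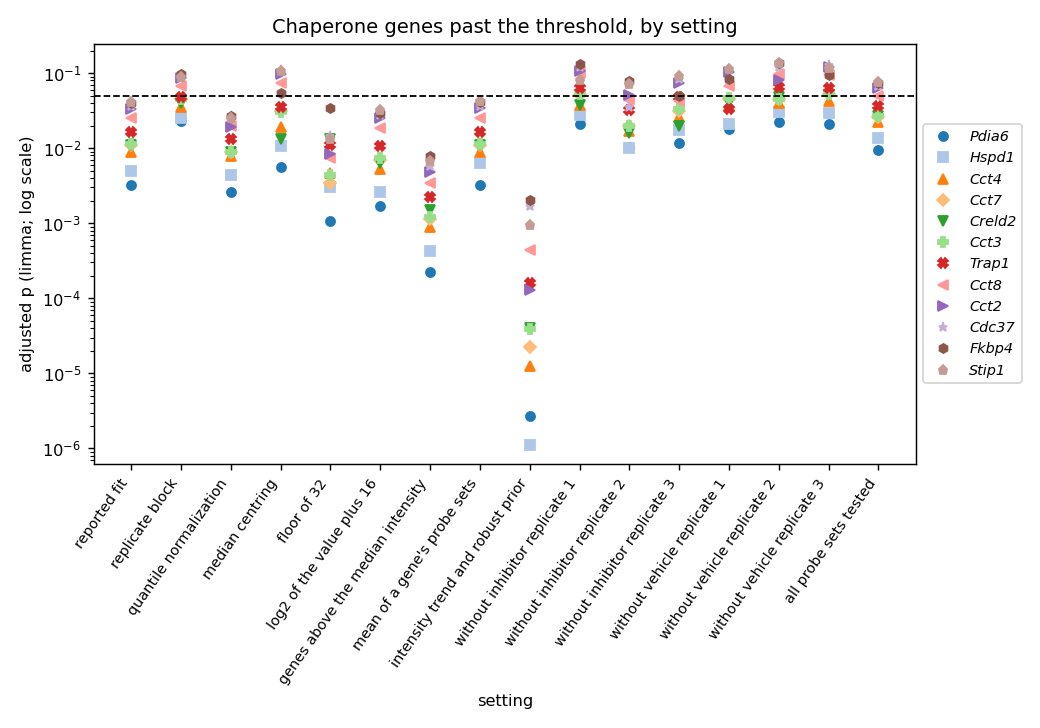
Adjusted p by limma (y axis, log scale) of the 12 chaperone genes past the threshold in the reported fit, in 14 alternative settings and in the fit of all probe sets (x axis); the dashed line marks 0.05 and each symbol is a gene. Pdia6, Hspd1 and Cct4 stay below the line in each setting, while Stip1 and Cct2 rise above it in all 6 settings that leave out an array.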

How the data were processed

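Biotin-labelled sense-strand DNA made from total RNA was hybridised to 6 Affymetrix arrays, per the labels' protocols. Per the submitters' processing notes, the authors used Affymetrix Expression Console to make the deposited intensity values. Its version, the summarization and any normalization are not given. Values ran from 0.71 to 8185.74 on a linear scale. Values below 16 were set to 16 and log2 was taken, which understates changes of dim genes. Gene names came from GEO's platform annotation, with symbols updated through Entrez IDs: 21789 probe sets have 1 gene symbol, 1621 several and 12102 are unlisted. Of 19938 genes, 19847 were tested and 91 left out because every array was at the floor. A gene with several probe sets was represented by its brightest one on average.

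The test was limma 3.58.1 in R 4.3.3, by lmFit and eBayes on group alone, 2-sided. P-values were adjusted by Benjamini-Hochberg across the whole table, and 0.05 was the threshold. SE and 95% intervals are those of the fit; means and SD are of deposited intensities, and the number of arrays limits the precision. All 49 genes are accounted for. Of related genes, up to 4 per list with the smallest p are named, with 7 sensors and factors that are always named (the eighth, Hsf1, is not analysed here). Hspa2, Ppp5c and Clpp are named beyond this rule, after their values were seen. The genes, lists and settings were chosen with earlier results of these data known, so nothing here is independent of them. Lists are described by counts and medians, without a test. Alternatives were a replicate block, 2 scalings, a floor of 32, an offset of 16, bright genes alone, averaged probe sets, an intensity trend with a robust prior, and each array left out. The fit was tested on simulated data. Promoters are from RefSeq, GRCm38.p6.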

Additional observations from a re-analysis of the deposited data

How the results depend on the processing

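Over all genes 2749 were called; 1679 were with a replicate block, 4199 with an intensity trend and robust prior, and 1184 to 2812 with an array left out. Of the 46 chaperone genes, 12 were lower, against 6.75% of all genes. The count was 7 with the replicate block (3.43% of all genes lower) and with median centring (4.82%). With all probe sets tested, an alternative added after the data were seen, it was also 7. It was 19 with a floor of 32 (8.66%) and 21 above the median intensity (43 genes tested, 22.2% of all such genes lower). With the trend it was 23 (11.2% lower), where 1 (Pdia3) was higher. With an array left out it was 3 to 10 (2% to 6.56% of all genes lower). Cytosolic calls (3) fell to 0 with the block, with median centring and with all probe sets and to 0 to 1 with an array left out. They numbered 4 with a floor of 32, above the median intensity and with the trend. TRiC calls (5) numbered 3 with the block, with centring and with all probe sets and 1 to 4 with an array left out. They rose to 6 with a floor of 32 and to 7 above the median intensity and with the trend. Mitochondrial calls (2) numbered 3 with a floor of 32 and above the median intensity, 4 with the trend and 1 to 2 with an array left out. ER calls (2) numbered 4 with quantile normalization, 6 with a floor of 32, 7 above the median intensity, 9 with the trend and 1 to 3 with an array left out. In the related lists, for which alternatives were added after the data were seen, cytosolic calls (6) numbered 12 above the median intensity, 13 with the trend and 1 to 9 with an array left out. Mitochondrial ones (5) numbered 2 with the block, 8 above the median intensity and 0 to 6 with an array left out. ER ones (3) numbered 5 with quantile normalization, 10 with a floor of 32, above the median intensity and with the trend, and 2 to 4 with an array left out. The cause of these differences between settings was not tested.

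Deviations from the group means correlated at 0.241, 0.135 and -0.096 between same-numbered arrays 1, 2 and 3. Inhibitor array 1 correlated best with vehicle array 1. Inhibitor arrays 2 and 3 correlated best with vehicle arrays 3 (0.179) and 1 (0.128). With 3 arrays per group these values cannot decide whether the numbers mark pairs. The reported fit does not use them as pairs, and the replicate block above does.

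The sign of the log2 fold change turned for 10 genes that passed in none of the settings. It turned for Hspa8 (-0.012) and Canx (-0.012) with quantile normalization, Bag3 (-0.016) with median centring and Dnaja1 (-0.030) with the mean of its probe sets. With an array left out, values ran from -0.040 to 0.023 for Hspa4l, -0.022 to 0.052 for Bag3, -0.050 to 0.0071 for Pdia4, -0.043 to 0.012 for Hsp90b1, -0.11 to 0.035 for Eif2ak3, -0.037 to 0.013 for Atf4 and -0.072 to 0.033 for Ddit3. Over all genes 1332 were called higher and 1597 lower after quantile normalization, 890 and 957 after median centring, and 1409 and 1340 as reported.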
